A study of Homo sapiens with 6 samples.

Results

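The EGF receptor family and its ligands were examined in U2OS cells, a human osteosarcoma line, after an siRNA against SURF2. The members were 9 genes taken by symbol, 3 receptors (EGFR, ERBB2 and ERBB3) and 6 ligands (HBEGF, AREG, EREG, TGFA, BTC and NRG1), of 58051 genes in the count table. Each symbol matched 1 gene, and all 9 genes passed the low-count filter that left 17561 genes for testing. The groups were siSURF2 (U2OS cells given siRNA against SURF2, 3 libraries) and siSCR (U2OS cells given a scrambled siRNA, 3 libraries). Both groups received 2 transfections 49 h apart, were harvested at 96 h and were kept in medium with 10% serum, which itself carries growth factors. A single siRNA label is given for the knockdown, so effects of 1 siRNA sequence and of the loss of SURF2 cannot be told apart, and the labels do not say whether the 3 libraries of a group were separate cultures. The p-values therefore reflect only how far these libraries spread, and that spread may be technical.

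EGFR, ERBB2 and ERBB3 are cell-surface receptor tyrosine kinases that signal as dimers. ERBB2 has no known ligand of its own and acts as the preferred partner of the others, and ERBB3 has little kinase activity and signals through its partner. The ligands are made as membrane-anchored precursors and are released by ADAM proteases. HBEGF, AREG, EREG, TGFA and BTC bind EGFR, with HBEGF, EREG and BTC also binding ERBB4, while NRG1 binds ERBB3 and ERBB4. Receptor activation runs through adaptors to RAS and ERK and through PI3 kinase, and several of the ligand genes are themselves induced by ERK signalling.

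Counts assigned to genes ranged from 18151554 to 19688089 in siSURF2 libraries and from 17123333 to 19573786 in siSCR libraries. SURF2 itself was at 3.50 ± 0.276 CPM in siSURF2 and 34.8 ± 2.11 CPM in siSCR (CPM, read counts scaled to a common library size; SD, n = 3 each). Of the 9 osteoblast lineage markers, RUNX2, COL1A1 and SPARC averaged 22.8 CPM or more in both groups, 4 stayed under 1 CPM in every library (SP7, COL1A2, BGLAP and IBSP) and IBSP had no counts at all. ALPL, a bone phosphatase, fell by 2.07 ± 0.25 on the log2 scale (0.742 ± 0.148 CPM in siSURF2 and 3.15 ± 0.132 CPM in siSCR), and SPP1, which encodes osteopontin, rose by 1.67 ± 0.19 (20.6 ± 5.01 CPM in siSURF2 and 6.51 ± 1.21 CPM in siSCR). The summed level of the 9, mostly SPARC, was 1514 to 1770 CPM in siSURF2 and 1195 to 1247 CPM in siSCR. The summed level of 8 epithelial markers was 1036 to 1113 CPM in siSURF2 and 1482 to 1609 CPM in siSCR, nearly all of it the keratins KRT8 and KRT18, which fell. The other epithelial markers went both ways: EPCAM rose by 0.99 ± 0.13 (8.74 ± 0.240 CPM in siSURF2 and 4.41 ± 0.381 CPM in siSCR), CLDN4 rose by 1.07 ± 0.08, and CDH1 fell by 2.70 ± 0.31 (0.484 ± 0.272 CPM in siSURF2 and 3.19 ± 0.312 CPM in siSCR). The 8 blood and endothelial markers summed to 3.61 to 4.70 CPM in siSURF2 and 4.88 to 5.75 CPM in siSCR, with CD3E and HBB at 0. Most of that was VWF (3.09 ± 0.357 CPM in siSURF2 and 3.07 ± 0.548 CPM in siSCR). PECAM1 fell by 1.34 ± 0.31 (0.657 ± 0.173 CPM in siSURF2 and 1.68 ± 0.143 CPM in siSCR). Whether these marker levels bear on the family's changes was not tested. Library siSURF2 replicate 2 stood apart from its group by its mitochondrial share (2.73% of counts, against 4.70% and 4.74% in siSURF2 replicates 1 and 3, and 2.91% to 3.50% in siSCR).

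With SURF2 lowered, the receptors differed little and several ligands differed strongly, in both directions. EREG rose 8.81-fold and AREG 2.61-fold, HBEGF fell to a level 3.62-fold lower, and TGFA and NRG1 did not pass the threshold. Of the 9 members, 3 rose (AREG, EREG and BTC), 2 fell (HBEGF and ERBB3) and 4 did not pass (EGFR, ERBB2, TGFA and NRG1), in edgeR's quasi-likelihood test with Benjamini-Hochberg adjustment over all genes and a threshold of 0.05. Over all genes tested, 52% passed, 25.8% higher and 26.2% lower, so 5 of 9 is near the background share. Passing the threshold with an absolute log2 fold change of at least 1 was seen for 4 of the 9 members (EREG, AREG, BTC and HBEGF) and for 8.48% of all genes tested. The members were chosen with earlier results of these data known, so this contrast is a description and no test of the family. BTC passed the filter only through the siSURF2 libraries, where it was higher, and its call was lost in 7 alternatives. Without siSURF2 replicate 2 the 5 members that passed still did, and ERBB2 passed as well. The libraries of the groups did not overlap for 5 members, the same 5 that passed the test, and for 57.3% of all genes. The median log2 fold change was -0.04 over the members and 0.00 over all genes. In these bulk libraries, fewer cells of a type and less RNA per cell cannot be told apart.

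**Figure D1:**
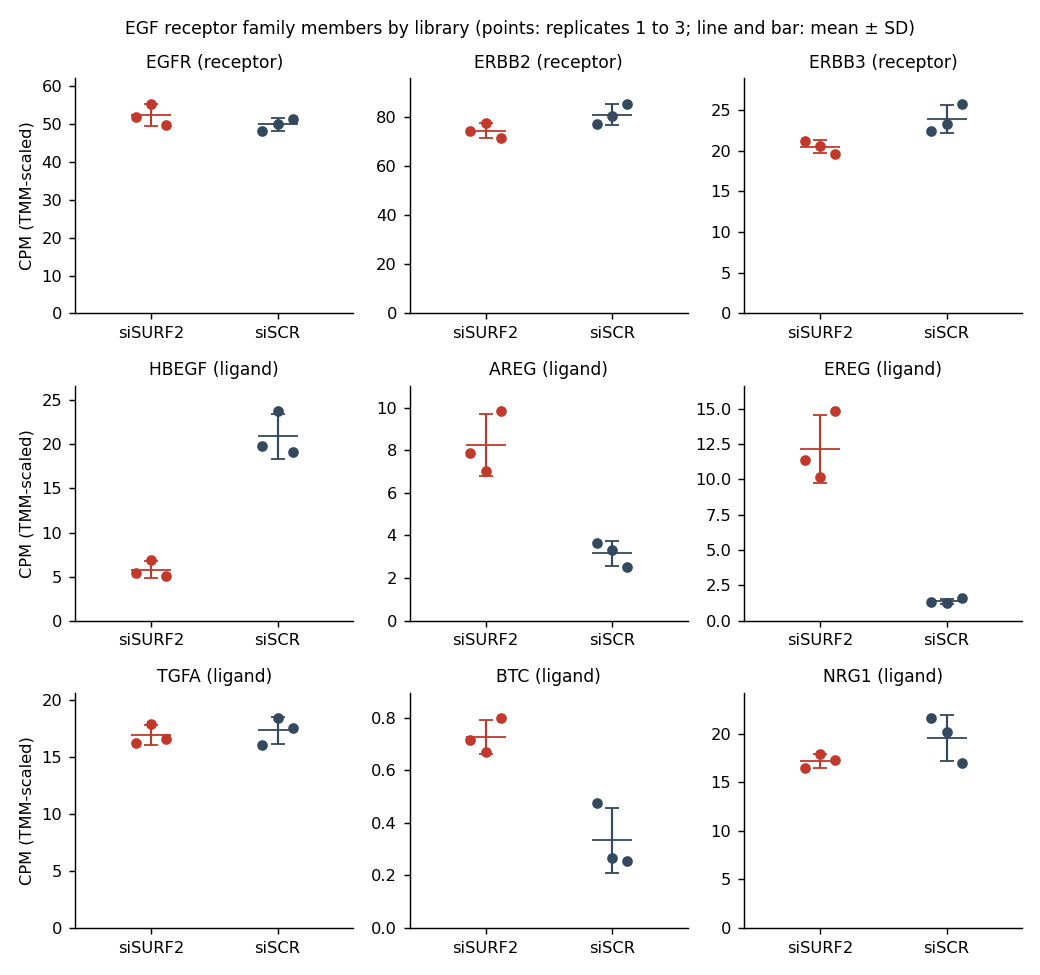
Level of each member in CPM (vertical axes, each starting at 0) in the 3 siSURF2 and 3 siSCR libraries, with the mean and SD. EREG, AREG and BTC lay higher and HBEGF and ERBB3 lower in all siSURF2 libraries, and the other panels overlap.

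EGFR (ENSG00000146648, chromosome 7, 55019021 to 55211628, plus strand, GRCh38) encodes the receptor shared by most of the ligands. It was at 51.9, 55.4 and 49.8 CPM in siSURF2 replicates 1, 2 and 3, against 48.1, 50.1 and 51.4 CPM in siSCR replicates 1, 2 and 3. The groups overlapped, with the lowest siSURF2 library under the highest siSCR library. EGFR differed by 0.07 ± 0.06 on the log2 scale (SE; adjusted p = 0.36 in edgeR), a difference within the spread between replicates. EGFR-AS1, annotated on the opposite strand across 186 bases of EGFR exons, had 0 to 3 counts in any library.

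ERBB2 (ENSG00000141736, chromosome 17, 39687914 to 39730426, plus strand), the partner receptor, was at 74.3, 77.3 and 71.2 CPM in siSURF2 replicates 1, 2 and 3, against 77.0, 80.3 and 85.3 CPM in siSCR replicates. The groups touched only through siSURF2 replicate 2, which lay just above siSCR replicate 1. The log2 fold change was -0.12 ± 0.06 (edgeR adjusted p = 0.067), and the adjusted p was 0.044 without siSURF2 replicate 2 and 0.022 without siSCR replicate 1. ERBB2 shares 571 bases of exon with MIEN1 and 194 with PGAP3, both on the opposite strand, and whether reads were counted by strand is not stated in the sources at hand. MIEN1 had 949 to 1020 counts in siSURF2 and 662 to 725 counts in siSCR, so reads of that stretch cannot be assigned with certainty.

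ERBB3 (ENSG00000065361, chromosome 12, 56076799 to 56103505, plus strand), the kinase-poor receptor of neuregulins, was at 21.2, 20.6 and 19.6 CPM in siSURF2 replicates 1, 2 and 3, against 22.4, 23.3 and 25.8 CPM in siSCR replicates. All siSURF2 libraries lay under all siSCR libraries, by a small margin. It fell by 0.22 ± 0.08 on the log2 scale (edgeR adjusted p = 0.021). That call was lost with several settings: the adjusted p was 0.057 with DESeq2, 0.062 with no filter, 0.065 with upper-quartile factors, 0.66 with spike-in scaling, 0.088 without siSURF2 replicate 3 and 0.097 without siSCR replicate 3. Within each library, ERBB3 had 0.409, 0.372 and 0.394 counts per EGFR count in siSURF2 replicates 1, 2 and 3, against 0.466, 0.465 and 0.501 in siSCR replicates, and the ranges did not overlap. An exact permutation test of 3 against 3 libraries cannot go below p = 0.10, the value reached by this ratio and by the other 4 ratios of members computed (adjusted p = 0.10 over 5, two-sided). Among these, the ratios of AREG and EREG to HBEGF set members that rose against one that fell. Their separation follows from those changes and adds no support. ERBB4, the remaining receptor of the family, had 1 to 3 counts per library and was not tested.

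EREG (ENSG00000124882, chromosome 4, 74365143 to 74388751, plus strand) encodes epiregulin, a low-affinity ligand of EGFR and ERBB4. Its counts were 207, 197 and 297 in siSURF2 replicates 1, 2 and 3, against 22, 23 and 31 in siSCR replicates, equal to 11.4, 10.2 and 14.8 CPM against 1.31, 1.23 and 1.59 CPM. The lowest siSURF2 library lay far above the highest siSCR library. Mean levels were 12.1 ± 2.42 CPM in siSURF2 and 1.38 ± 0.190 CPM in siSCR (SD, n = 3 each). The log2 fold change was 3.13 ± 0.18 (edgeR adjusted p = 2.7e-14), and 0.359% of all genes tested had a log2 fold change at least as large in either direction.

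AREG (ENSG00000109321, chromosome 4, 74445134 to 74455009, plus strand) encodes amphiregulin, a heparin-binding ligand of EGFR. It was at 7.86, 7.02 and 9.85 CPM in siSURF2 replicates 1, 2 and 3, against 3.63, 3.32 and 2.52 CPM in siSCR replicates. The groups did not overlap. AREG rose by 1.39 ± 0.17 on the log2 scale (edgeR adjusted p = 4.9e-08). In siSURF2, replicate 3 was the highest and replicate 2 the lowest for both EREG and AREG. The fold change of EREG was larger in value than that of AREG, and within a library there were 1.45, 1.45 and 1.51 EREG counts per AREG count in siSURF2 replicates 1, 2 and 3, against 0.361, 0.371 and 0.633 in siSCR replicates. That is a difference of 1.74 in the mean log2 ratio (higher in 3 of 3 siSURF2 libraries, exact permutation p = 0.10, the smallest that this design allows).

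The bases just before the starts of AREG and EREG are shown because these neighbouring genes rose together. They were taken from RefSeq's promoter table (GRCh38.p14) and stop before the first transcribed base of either annotation. The AREG stretch is chr4:74444886-74445133 and the EREG stretch chr4:74364895-74365142, both on the plus strand and 248 bases long. Capitals mark matches on either strand to TGACGTCA, the cyclic AMP response element, and to TATAAA, the core of a TATA box.
AREG: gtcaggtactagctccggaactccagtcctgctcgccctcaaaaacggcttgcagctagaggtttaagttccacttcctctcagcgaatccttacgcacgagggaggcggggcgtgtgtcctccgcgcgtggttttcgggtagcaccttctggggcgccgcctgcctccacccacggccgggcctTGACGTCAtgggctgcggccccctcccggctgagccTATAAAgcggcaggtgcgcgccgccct
EREG: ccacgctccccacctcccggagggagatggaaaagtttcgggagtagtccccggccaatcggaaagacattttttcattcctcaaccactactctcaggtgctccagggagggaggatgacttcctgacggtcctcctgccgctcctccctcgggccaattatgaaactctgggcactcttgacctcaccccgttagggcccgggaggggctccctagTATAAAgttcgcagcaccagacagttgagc

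In the 250 bases before the RefSeq start, both genes held TATAAA, at position -29 in AREG and at position -32 in EREG, and 10.7% of 35116 promoters searched the same way held it. AREG also held TGACGTCA at position -65, found in 1.65% of promoters, and EREG did not. Neither held TGANTCA, the AP-1 site, found in 6.57% of promoters. These matches describe letters and are not evidence of binding. AREG also held the GC box GGGCGG at position -9, and its matches did not overlap.

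BTC (ENSG00000174808, chromosome 4, 74744759 to 74794686, minus strand) encodes betacellulin, a ligand of EGFR and ERBB4. It was barely detected, with 13, 13 and 16 counts in siSURF2 replicates 1, 2 and 3, against 8, 5 and 5 counts in siSCR replicates. In CPM these were 0.715, 0.671 and 0.800 in siSURF2, against 0.476, 0.267 and 0.257 in siSCR. The groups did not overlap, but the filter asked for about 0.524 CPM in 3 libraries and only siSURF2 met it. The log2 fold change was 1.14 ± 0.44 (edgeR adjusted p = 0.030). The adjusted p was 0.070 with no filter, 0.11 with DESeq2 and 0.24 with spike-in scaling, and it missed the threshold on leaving out siSURF2 replicate 1 (0.062), siSURF2 replicate 3 (0.086), siSCR replicate 2 (0.10) or siSCR replicate 3 (0.12).

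EREG, AREG and BTC lie close together on chromosome 4, with EPGN, the gene of the ligand epigen. Within 500 kb on either side of the stretch from EREG to BTC, the annotation places 12 protein-coding genes, of which 6 could be tested: 5 rose, none fell, and CXCL3, a chemokine, did not pass (0.58 ± 0.46). Of the 5, EREG, AREG and BTC are the members that defined the window, so 2 of 3 other tested genes rose, against 25.8% of all genes tested. MTHFD2L, a mitochondrial folate enzyme, rose by 0.56 ± 0.08 on the log2 scale (38.4 ± 4.08 CPM in siSURF2 and 26.0 ± 1.51 CPM in siSCR, adjusted p = 5.6e-07), and PARM1 rose by 0.96 ± 0.23 (adjusted p = 7.2e-04). EPGN had 0 to 2 counts in siSURF2 libraries and 0 to 4 counts in siSCR libraries. CXCL1, CXCL2, PF4 and PPBP had 0 counts in all libraries, which allows up to 0.175 CPM in the shallowest one (3 counts), and CXCL5 had at most 6 counts. The window was chosen after the members' values were seen, and no test of the neighbourhood as a whole was made.

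**Figure D2:**
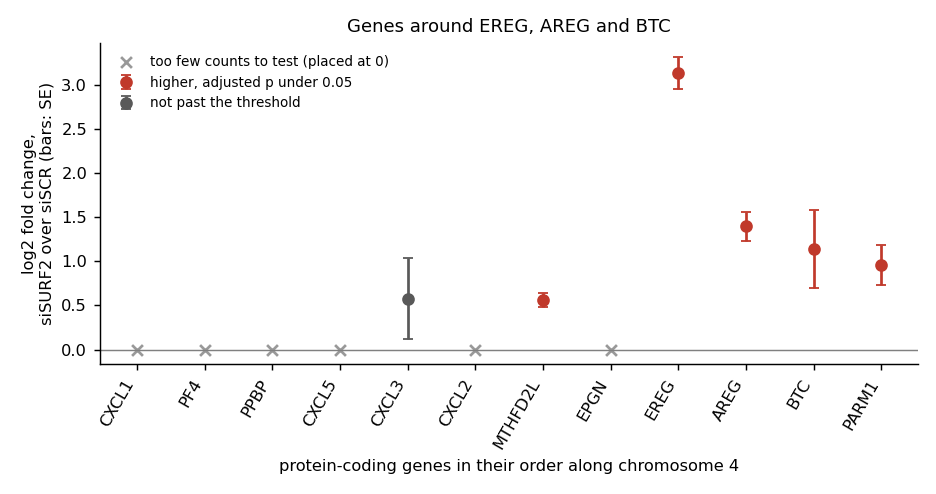
Log2 fold change of siSURF2 over siSCR (vertical axis, bars are SE) for 12 protein-coding genes in their order on chromosome 4, crosses marking genes with too few counts. EREG stands highest at 3.13, with AREG at 1.39, BTC at 1.14, PARM1 at 0.96 and MTHFD2L at 0.56.

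HBEGF (ENSG00000113070, chromosome 5, 140332843 to 140346631, minus strand) encodes the heparin-binding EGF-like factor, a ligand of EGFR and ERBB4. It had 98, 133 and 101 counts in siSURF2 replicates 1, 2 and 3, against 333, 445 and 372 in siSCR replicates, or 5.39, 6.87 and 5.05 CPM against 19.8, 23.8 and 19.1 CPM. The highest siSURF2 library was well under the lowest siSCR library. Mean levels were 5.77 ± 0.967 CPM in siSURF2 and 20.9 ± 2.53 CPM in siSCR (SD, n = 3 each). HBEGF had a log2 fold change of -1.86 ± 0.12 (edgeR adjusted p = 2.3e-13). Of all genes tested, 1.03% had a log2 fold change as low or lower, counted in that direction only, unlike the share given for EREG.

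The bases before the HBEGF start are shown beside those of the ligands that rose, as chr5:140346632-140346853 of GRCh38.p14 on the minus strand, 222 bases from RefSeq. No match to the same capitalised motifs lies in them.
HBEGF: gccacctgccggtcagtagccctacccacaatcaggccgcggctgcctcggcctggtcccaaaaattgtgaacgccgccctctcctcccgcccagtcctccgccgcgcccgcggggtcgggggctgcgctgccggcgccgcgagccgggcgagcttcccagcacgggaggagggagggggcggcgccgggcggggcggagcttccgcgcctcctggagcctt

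In the 250 bases before its RefSeq start, HBEGF held neither TATAAA, TGACGTCA nor TGANTCA, and 5 matches to the GC box GGGCGG, found in 42.6% of promoters, of which those at positions -63 and -58 share a base. The stretch printed is 76.1% G and C, against 65.3% in AREG and 58.1% in EREG, and the median over all promoters is 58%. Promoters were in the table for 7 of the 9 members, ERBB3 and NRG1 being the others. BTC, which rose, held no match to any of these motifs. EGFR, which did not pass, held TATAAA at positions -146 and -36 of promoter 2. Promoter 1 of EGFR held no TATAAA, and GGGCGG at positions -204 and -36. TGANTCA, absent from AREG, EREG and HBEGF, lay at positions -232 and -136 of EGFR promoter 2. It also lay at position -222 of ERBB2, which did not pass either. TGFA, which did not pass, held GGGCGG at positions -204, -131 and -73 of promoter 1, and no TATAAA. Promoter 2 of TGFA held no match to any of these motifs. Whether these letters bear on the direction of change was not tested.

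TGFA (ENSG00000163235, chromosome 2, 70447280 to 70554193, minus strand) encodes transforming growth factor alpha, a high-affinity EGFR ligand. It was at 16.2, 17.9 and 16.6 CPM in siSURF2 replicates 1, 2 and 3, against 16.0, 18.4 and 17.6 CPM in siSCR replicates. The siSURF2 values lay within the siSCR range. TGFA had a log2 fold change of -0.04 ± 0.09 (edgeR adjusted p = 0.74), and its sign changed with upper-quartile factors and on leaving out siSURF2 replicate 1 or siSCR replicate 2.

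NRG1 (ENSG00000157168, chromosome 8, 31639386 to 32767959, plus strand) encodes neuregulin 1, the ligand of ERBB3 and ERBB4. It was at 16.4, 17.9 and 17.2 CPM in siSURF2 replicates 1, 2 and 3, against 21.6, 20.2 and 16.9 CPM in siSCR replicates. The groups overlapped because siSCR replicate 3 lay among the siSURF2 libraries. The log2 fold change was -0.18 ± 0.09 (edgeR adjusted p = 0.095), and without siSCR replicate 3 it was -0.29 with an adjusted p of 0.0094. The other ligand genes of the family averaged 7.47 CPM or less in each group. EGF rose by 0.99 ± 0.31 (22, 36 and 55 counts in siSURF2 replicates 1, 2 and 3, against 15, 21 and 18 in siSCR replicates, adjusted p = 0.0079), a call lost without siSURF2 replicate 3 (0.65 ± 0.34, adjusted p = 0.11). NRG3 fell by 0.46 ± 0.13 (5.43 ± 0.242 CPM in siSURF2 and 7.47 ± 0.762 CPM in siSCR, adjusted p = 0.0052). NRG2 had a log2 fold change of -0.11 ± 0.14 (5.99 ± 0.387 CPM in siSURF2 and 6.45 ± 0.546 CPM in siSCR). NRG4 had 2 to 10 counts per library and was not tested.

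**Figure D3:**
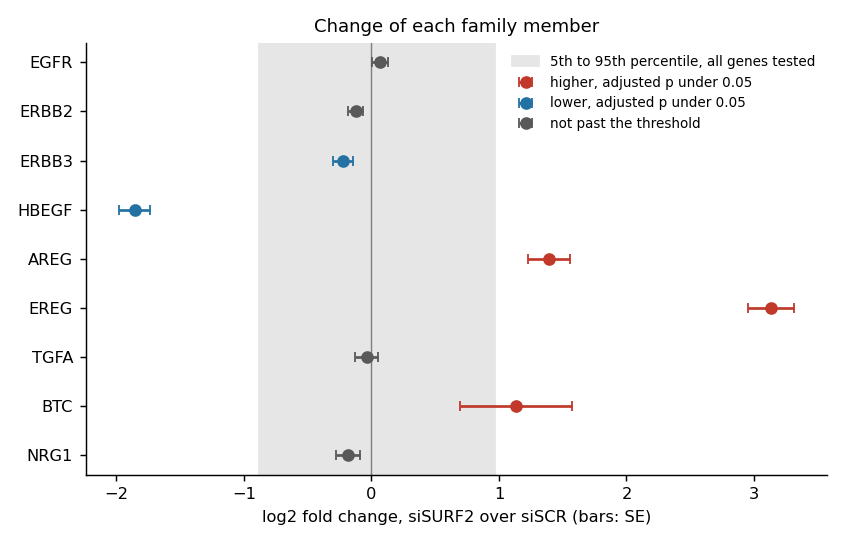
Log2 fold change of siSURF2 over siSCR for each member (points, bars are SE), over a grey band from the 5th to the 95th percentile of all genes tested (-0.88 to 0.97). EREG, AREG, BTC and HBEGF have point values outside the band, and the SE of BTC reaches into it.

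Levels of different members were compared per kilobase of annotated exon. In siSURF2 the order was ERBB2 (7.19 ± 0.296 CPM per kb), AREG (5.00 ± 0.880), EGFR (4.18 ± 0.226), TGFA (3.40 ± 0.173), ERBB3 (2.26 ± 0.0913), EREG (2.12 ± 0.424), HBEGF (1.91 ± 0.320), NRG1 (1.52 ± 0.0628) and BTC (0.259 ± 0.0232). In siSCR the order was ERBB2 (7.84 ± 0.406 CPM per kb), HBEGF (6.93 ± 0.840), EGFR (3.98 ± 0.131), TGFA (3.49 ± 0.244), ERBB3 (2.64 ± 0.191), AREG (1.91 ± 0.349), NRG1 (1.73 ± 0.211), EREG (0.241 ± 0.0332) and BTC (0.118 ± 0.0439). Neighbours whose library ranges overlapped were AREG and EGFR, ERBB3 and EREG, and EREG and HBEGF in siSURF2, and ERBB2 and HBEGF, and AREG and NRG1 in siSCR. HBEGF ranked 7 of 9 in siSURF2, against 2 of 9 in siSCR, and AREG ranked 2 in siSURF2, against 6 in siSCR. With the longest transcript as length, the levels of ERBB2 (15.1 CPM per kb in siSURF2 and 16.4 in siSCR), NRG1 (2.90 in siSURF2 and 3.30 in siSCR) and ERBB3 (3.46 in siSURF2 and 4.03 in siSCR) were over 1.5 times those above, HBEGF ranked 8 in siSURF2 and AREG 7 in siSCR. NRG1 then ranked 6 in siSURF2, above EREG (2.63) and HBEGF (2.42). In siSCR, ERBB3 then ranked 4, just above TGFA (4.02). The order of these genes therefore depends on the length used.

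The summed level of the 6 ligands per kilobase was 13.5, 13.7 and 15.4 CPM per kb in siSURF2 replicates 1, 2 and 3, against 14.3, 15.7 and 13.3 CPM per kb in siSCR replicates. NRG2, NRG3 and the other ligand genes outside the members were not part of these sums. The sums overlapped, as did the shares of TGFA and NRG1, while those of HBEGF, AREG, EREG and BTC did not. HBEGF made up 13.5 ± 2.87% of that sum in siSURF2 and 48.0 ± 2.17% in siSCR (SD, n = 3 each). AREG made up 35.0 ± 3.90% in siSURF2 and 13.2 ± 1.98% in siSCR, and EREG 14.9 ± 1.96% in siSURF2 and 1.69 ± 0.373% in siSCR. TGFA stood at 24 ± 2.25% in siSURF2 and 24.3 ± 2.14% in siSCR. With the longest transcript as length, HBEGF made up 13.0% in siSURF2 and 46.0% in siSCR. Within a library there were 2.11, 1.48 and 2.94 EREG counts per HBEGF count in siSURF2 replicates 1, 2 and 3, against 0.0661, 0.0517 and 0.0833 in siSCR replicates.

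**Figure D4:**
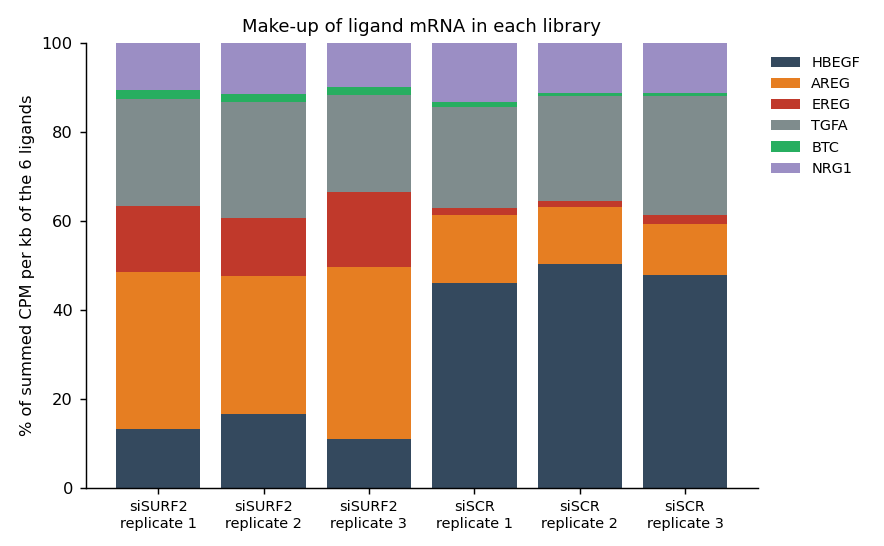
Share of each ligand in the summed CPM per kb of the 6 ligands (vertical axis, percent), in each siSURF2 and siSCR library. HBEGF is the largest share in siSCR libraries (48.0% on average) and AREG in siSURF2 libraries (35.0%), with TGFA at about a like share in both.

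The other genes of the pathway were counted in lists. Of 11 genes of ligand shedding, 5 rose, 3 fell and 3 did not pass (median log2 fold change 0.13). ADAM12, a sheddase reported to release HBEGF, rose by 1.18 ± 0.07 (67.7 ± 6.0 CPM in siSURF2 and 29.8 ± 1.65 CPM in siSCR, edgeR adjusted p = 3.6e-14). RHBDF2, which encodes iRhom2, a partner that brings ADAM17 to the cell surface, rose by 0.97 ± 0.07 (62.0 ± 4.79 CPM in siSURF2 and 31.6 ± 1.44 CPM in siSCR). ADAM17, the main sheddase of AREG, EREG, HBEGF and TGFA, had a log2 fold change of 0.13 ± 0.06 (adjusted p = 0.074), and ADAM10, which releases BTC, rose by 0.16 ± 0.05 (adjusted p = 0.010); both were named after their values were seen. ADAM19 and ADAM15, other membrane proteases, fell by 0.47 ± 0.06 and 0.41 ± 0.06.

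Of 23 adaptors and direct effectors, 6 rose, 9 fell and 8 did not pass (median -0.07). STAT5B, a transcription factor, rose by 0.80 ± 0.07, and SOS2, an exchange factor that activates RAS, by 0.72 ± 0.07. CRK, an adaptor, fell by 0.70 ± 0.06, and GAB2, a docking protein, by 0.68 ± 0.08. Of 24 genes of receptor restraint and traffic, 8 rose, 9 fell and 7 did not pass (median 0.06), and the number that fell was 4 or 5 with upper-quartile factors, no factors or no filter, and on leaving out siSURF2 replicate 1 or siSCR replicate 2. LRIG1, a membrane protein that lowers receptor levels, fell by 1.31 ± 0.07 (15.4 ± 0.491 CPM in siSURF2 and 38.3 ± 1.55 CPM in siSCR, adjusted p = 1.9e-14), and SOCS6 fell by 0.50 ± 0.08. TNK2, a kinase in receptor traffic, rose by 0.53 ± 0.07 and GRB10, an adaptor, by 0.40 ± 0.06.

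Of 15 genes of the RAS to ERK core, 4 rose, 5 fell and 6 did not pass (median 0.06). NRAS, 1 of the RAS proteins, fell by 1.39 ± 0.05 (122.4 ± 4.22 CPM in siSURF2 and 320.6 ± 8.22 CPM in siSCR, edgeR adjusted p = 7.9e-19), and KSR1, a scaffold of the pathway, by 0.67 ± 0.07. MAP2K2, which encodes MEK2, rose by 0.55 ± 0.06, and NF1, which switches RAS off, by 0.38 ± 0.05. Of 20 ERK-responsive genes, 16 could be tested, of which 8 rose, 4 fell and 4 did not pass (median 0.14). PHLDA1 rose by 2.10 ± 0.09 (38.3 ± 0.680 CPM in siSURF2 and 8.89 ± 1.46 CPM in siSCR) and ETV1, a transcription factor, by 1.62 ± 0.15, while SPRED1, an inhibitor of the pathway, fell by 0.56 ± 0.06 and MYC by 0.26 ± 0.05. EGR1, an immediate-early factor named after its values were seen, was at 12.8, 14.9 and 17.7 CPM in siSURF2 replicates 1, 2 and 3, against 41.5, 44.5 and 62.8 CPM in siSCR replicates (adjusted p = 0.0019). Of 21 other growth factor receptors, 19 could be tested, of which 6 rose, 7 fell and 6 did not pass (median 0.08). DDR1, a collagen receptor, rose by 0.67 ± 0.05 and MET, the receptor of hepatocyte growth factor, also by 0.67 ± 0.05. PDGFRB, a platelet-derived growth factor receptor, fell by 1.80 ± 0.06 (24.2 ± 0.706 CPM in siSURF2 and 84.4 ± 4.24 CPM in siSCR, adjusted p = 5.5e-19), and FGFR1 by 0.70 ± 0.06. With library sizes set by the spike-ins, 18 of the 26 genes past the threshold that the naming rule took from these lists and the other family genes lost it. Those 18 kept their sign, with log2 fold changes near those of the main fit and wider SEs. For example, GAB2 was at -0.69 ± 0.28 and MET at 0.62 ± 0.26, against -0.68 ± 0.08 and 0.67 ± 0.05 in the main fit. In these lists 60% to 75% of tested genes passed, against 52% of all genes, and no list was tested as a whole.

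**Figure D5:**
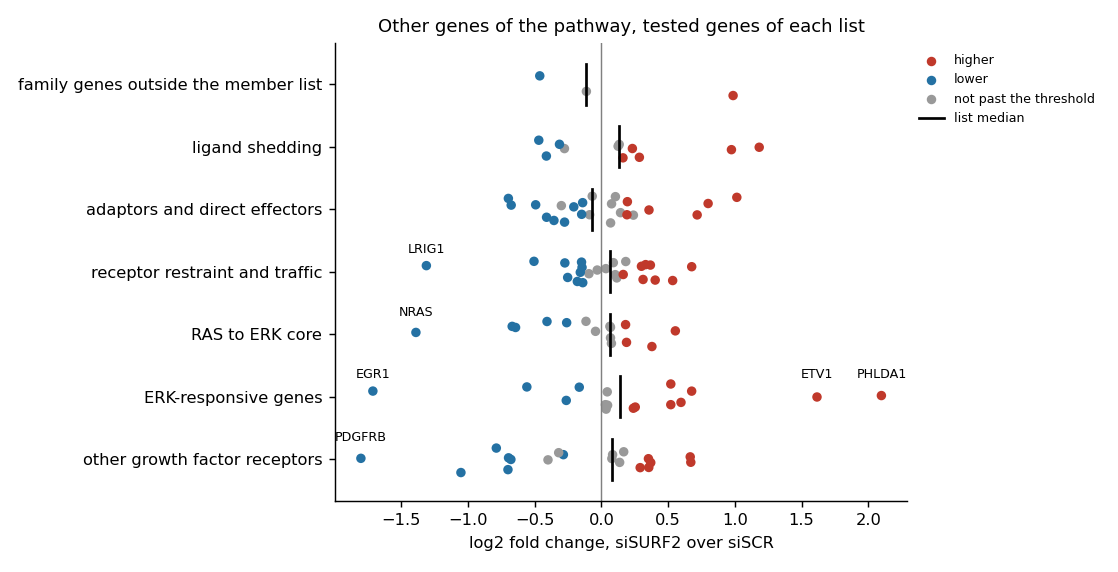
Log2 fold change of siSURF2 over siSCR (horizontal axis) for each tested gene of 7 lists, coloured by call, with the list median as a black line. Every list median lies between -0.11 and 0.14, while single genes such as PHLDA1 (2.10), NRAS (-1.39) and PDGFRB (-1.80) lie far out.

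Genes with patterns most like EGFR, EREG and HBEGF were sought among 12071 protein-coding genes by the Euclidean distance of log2 CPM, centred on each gene's mean, over the 6 libraries. Nearest to EGFR were SEPTIN2, BACE2 and AZIN1, at distances of 0.0425, 0.0443 and 0.0517. Nearest to EREG were EPHA5 (0.417), ONECUT3 (0.429) and HTRA1 (0.599), with log2 fold changes of 2.89 ± 0.10, 3.28 ± 0.21 and 3.11 ± 0.14. Nearest to HBEGF were KCNA2 (0.253), LGI2 (0.273) and RIMS2 (0.281), with log2 fold changes of -1.95 ± 0.22, -1.98 ± 0.14 and -1.68 ± 0.12. With 2 groups of 3 libraries such nearness mostly reflects a similar group difference and is given as a description.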

How the data were processed

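PolyA RNA of U2OS cells was sequenced in 3 siSURF2 and 3 siSCR libraries. The deposited table holds unnormalised read counts for each gene, with 92 ERCC spike-in entries (1.12% to 1.72% of counts), which were left out of library sizes and tests. Reads were handled with fastp 0.23.1 and STAR 2.5.2b on GRCh38, per the submitters' processing notes; the tool, annotation and strand mode behind the counts are not stated in the sources at hand. Of 58051 gene identifiers, 56948 were named from a gene name table, 499 from GENCODE release 29, and 604 stayed unnamed.

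Counts were scaled to CPM with TMM factors and tested with edgeR 4.0.16 (R 4.3.3; quasi-likelihood, robust, filterByExpr with a minimum count of 10 and total of 15), with no covariate, Benjamini-Hochberg adjustment over 17561 genes and a threshold of 0.05. The SE was taken as the log2 fold change over the root of F. The script was tested on simulated data. At these depths 1 CPM was 17.1 to 19.7 counts, and the floor of 3 counts covers counting error only. The SDs and SEs also hold the spread between libraries. No library pair agreed within sampling noise (the closest had a chi-square to degrees-of-freedom ratio of 2.53), so all were counted. The alternatives were other scalings, ERCC library sizes, other filters, DESeq2 1.42.0, limma 3.58.1, a non-robust prior, a replicate block and leaving out each library. Lengths and positions came from GENCODE release 29, and promoter sequences from RefSeq GRCh38.p14.

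The members and lists were chosen with earlier results of these data known. The text names all members, the other family genes, up to 2 genes per direction with the smallest adjusted p in each pathway list, and the 3 genes most like EGFR, EREG and HBEGF; marker genes outside that rule (among them SPP1 and CDH1) and the genes around EREG were named after their values were seen, as were others marked where they appear.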

Additional observations from a re-analysis of the deposited data

How the results depend on the processing

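Over 16 alternatives (15 for BTC) no member other than TGFA changed sign; TGFA, near 0, was at 0.0076 with upper-quartile factors, 0.0064 without siSURF2 replicate 1 and 0.015 without siSCR replicate 2. EREG (log2 fold change 2.96 to 3.25), AREG (1.24 to 1.5) and HBEGF (-2.0 to -1.74) passed the threshold in each, and EGFR (0.01 to 0.11) and TGFA (-0.10 to 0.02) in none. With ERCC library sizes, 802 genes were higher and 825 lower, and the median shift in log2 fold change from the main fit was -0.04. ERBB3 was at -0.28 ± 0.28 (SE), against -0.22 ± 0.08 in the main fit. BTC was at 1.13 ± 0.57, against 1.14 ± 0.44 in the main fit. Neither passed the threshold, and 18 of 26 named pathway genes lost it, for a cause that was not tested. ERBB3 also missed it at -0.18 with upper-quartile factors, -0.20 with no filter and -0.22 with DESeq2, which left 1 member lower in each of these settings and with ERCC library sizes. BTC missed it at 1.15 with no filter and 1.14 with DESeq2, and had no value under a filter of 1 CPM. Leaving out 1 library at a time gave 1 to 3 members lower, ERBB3 at -0.27 to -0.17, BTC at 0.97 to 1.44, ERBB2 at -0.17 to -0.09 and NRG1 at -0.29 to -0.12.

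Of 320 list counts recomputed, marker lists included, 15 moved by over 1.5 times with ERCC library sizes and 6 in other settings. Of 18 levels per length, 6 moved by over 1.5 times with the longest transcript as length (ERBB2, ERBB3 and NRG1 in both groups). The labels state no pairing, and replicates of like number showed no shared deviation (correlations of deviations of 0.0035, -0.092 and -0.039). That does not show that the samples were unpaired. With the replicate block, 4478 genes were higher and 4550 lower, and 3 members were higher and 2 lower. The counts of BTC (5 to 16 per library) limit its precision.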
